A study of Homo sapiens with 5 samples.

Results

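The EZH2 inhibitor-resistant (EIR) clones 3 and 4 of TOV21G cells share a parental line, but 53 protein-coding genes departed from it in opposite directions, higher in clone 3 and lower in clone 4. They were selected on their measured levels. A gene was a member if it had at least 0.3 CPM (counts divided by the library total and scaled to 1e6) in parental cells, at least 1 CPM and at least 2 times the parental level in both clone 3 libraries, and no more than 0.5 times the parental level in both clone 4 libraries. Of 30476 genes, 16826 were protein-coding, and 12155 of these had the parental minimum and a symbol that did not start with HOX, KRT, COL, PCDH, ZNF or ABC. The 53 members made up 0.436% of these 12155 genes. The parental minimum applied to all genes alike, whereas the minimum in clone 3 acted where the members are high.

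TOV21G is an established ovarian clear cell carcinoma (OCCC) line with a mutation in ARID1A, which encodes a subunit of the SWI/SNF chromatin remodeling complex. GSK126 inhibits EZH2, the enzyme of the PRC2 complex that methylates lysine 27 of histone H3. EIR cells were selected from TOV21G cells in GSK126 at 5, 10, 15 and then 20 uM, after which clones were picked. The 5 RNA-seq libraries were 1 of parental TOV21G cells without GSK126, 1 each of EIR clones 3 and 4 without GSK126, and 1 each of clones 3 and 4 with GSK126. Each EIR line was thus 1 clone. The labels state neither how much GSK126 the treated cultures received nor for how long. Total counts were between 25479238 and 30764963 per library, so that 3 counts, taken as the floor, stood for 0.0975 to 0.118 CPM. Where 2 values are given for a clone, the untreated library comes first.

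The members are no single pathway. They include cyclin D2, a partner of CDK4 and CDK6 that drives cells through G1. Others are secreted chemokines and cytokines that recruit or activate leukocytes, receptors and adhesion molecules of the plasma membrane, and Golgi enzymes that build and sulfate the sugar chains of surface proteins. A further part consists of ion channels, membrane transporters and tissue-restricted transcription factors. PRC2 is best known for holding developmental and tissue-restricted genes silent.

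Clear cell identity was checked in all libraries. Of 9 listed OCCC markers, 7 had at least 1 CPM in every library, among them PAX8 and ANXA4. The summed level of the 9 was between 1218 and 1978 CPM, and SPP1 and TFPI2 made up much of it. SPP1 was at 267 CPM in parental cells, 1052 and 1362 in clone 3 and 815 and 789 in clone 4. TFPI2 was at 459 CPM in parental cells, 310 and 239 in clone 3 and 607 and 620 in clone 4. ARID3A was lower in both clones, with 44.6 CPM in parental cells, 9.72 and 10.8 in clone 3 and 9.87 and 9.22 in clone 4. EPCAM, an epithelial adhesion molecule, had 0 and 1 counts in clone 4 against 398 in parental cells and 426 and 498 in clone 3. NAPSA had 2 counts in parental cells, 53 and 50 in clone 3, and 6 and 4 in clone 4. Of 8 listed markers of leukocytes, endothelium, erythroid cells and liver, all 8 were under 1 CPM in every library, with a summed level of 0.469 to 1.57 CPM. CD3E and PECAM1 were not analysed here.

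Both sides of the selection rule were met by many more genes than met it together. Higher in clone 3 were 892 of 12155 genes (7.34%), and lower in clone 4 were 1467 (12.1%). The members were 5.94% of the former and 3.61% of the latter. With the clones exchanged, 720 genes (5.92%) were higher in clone 4 and 1185 (9.75%) were lower in clone 3, and only 1 gene (0.00823%) met both sides, which was 0.139% and 0.0844% of these sets. All these comparisons share the parental library, so they are not independent of each other. With median-of-ratios or TMM scaling the mirrored rule was met by 4 genes and with a fold of 1.5 by 12.

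The members were mostly low in parental cells and lay far apart in the clones. Their median was 1.51 CPM in parental cells, 8.97 and 11.1 CPM in clone 3, and 0.136 and 0.157 CPM in clone 4. In parental cells 19 members were under 1 CPM and 8 over 10 CPM, whereas 25 were over 10 CPM in both clone 3 libraries. With both libraries of a clone pooled, clone 3 was 2.33 to 45.8 times the parental level, with a median of 4.47. It was at least 10 times higher for 9 members and under 3 times for 14. The parental level was 2.37 to 132 times that of clone 4 where clone 4 had any count, with a median of 6.63 over all members, and it was at least 10 times higher for 20 and under 3 times for 6. Between the clones the median ratio was 38.1. These values were used in the selection and are a description without a test, and a change in all cells of a clone cannot be told apart from a change in the share of cells that express the gene.

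**Figure D1:**
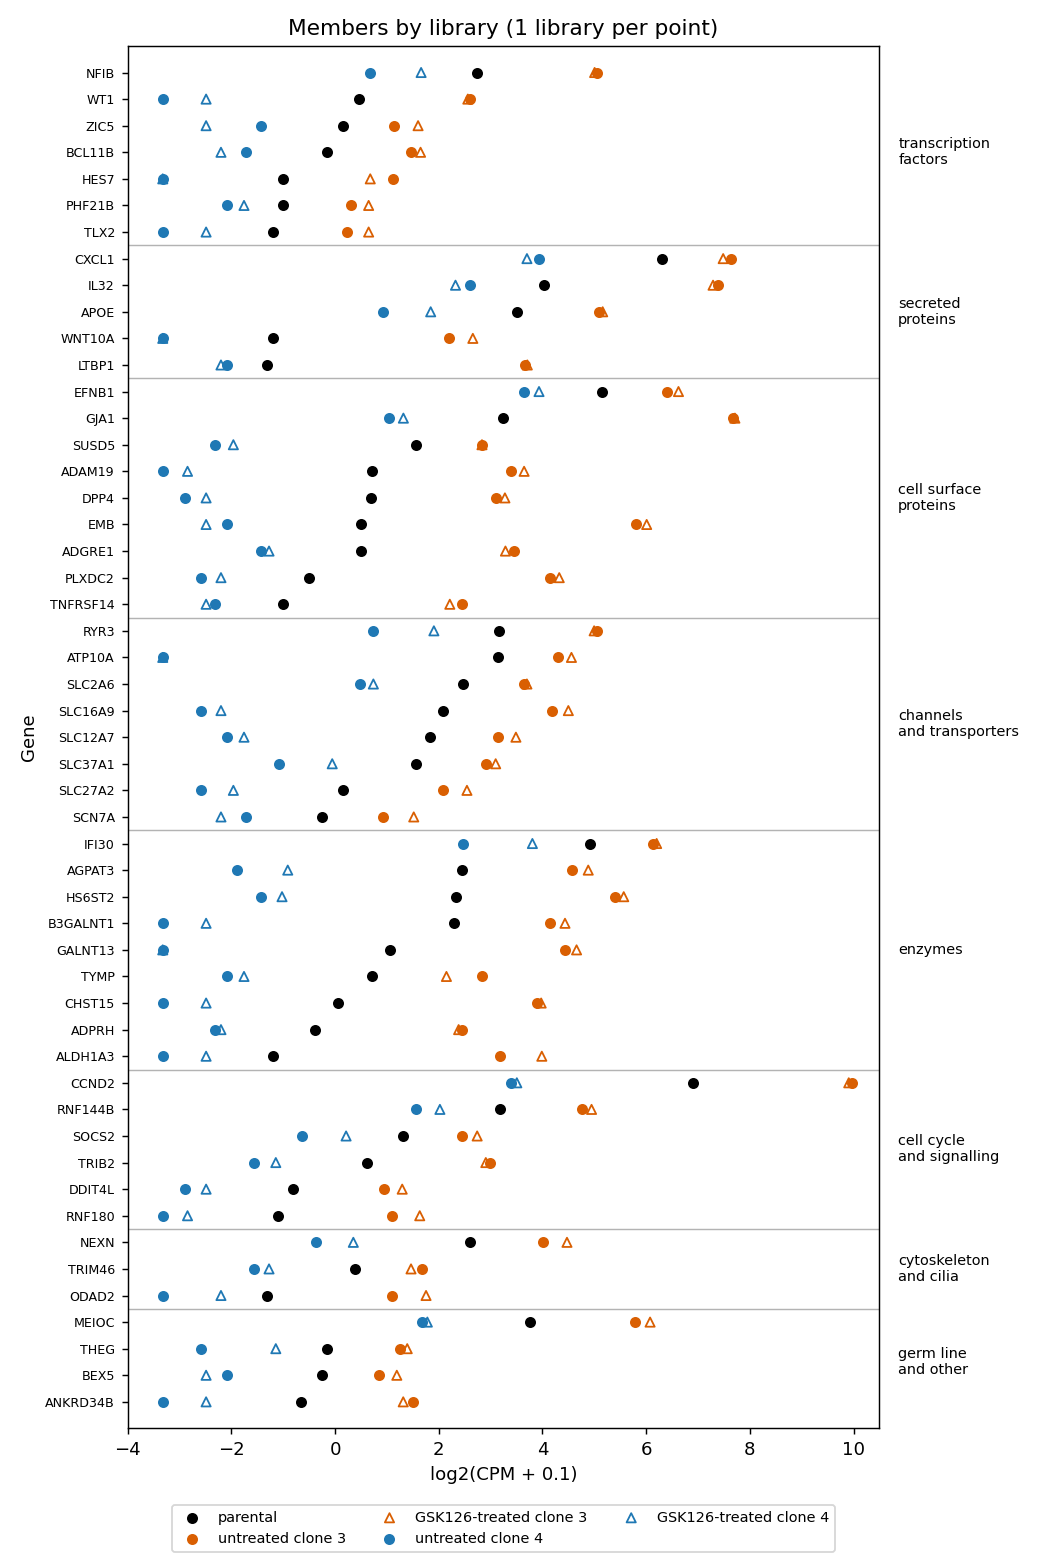
Level of 51 of the 53 members in each of the 5 libraries, as log2 of CPM plus 0.1, grouped by role and ordered by parental level within a role. Black points are parental cells, orange clone 3 and blue clone 4, filled for untreated and open triangles for GSK126-treated libraries, 1 library per point. Parental points lie between the orange and the blue points in every row, as the selection requires, and 4 genes have both blue points at 0 CPM.

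Clone 4 held almost no transcript of many members. In 20 of the 53 both clone 4 libraries had at most 3 counts, and in 4 of these (ATP10A, GALNT13, HES7 and WNT10A) both had 0. Untreated clone 4 had 0 counts for 14 members and treated clone 4 for 4. In untreated clone 4, 129 of the 12155 genes had 0 counts, and in treated clone 4 88 did. Beside the members, 9 other genes with at least 30 counts in both clone 3 libraries had 0 counts in untreated clone 4 and 6 had 0 in treated clone 4.

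Promoter sequences were compared for what the selection did not use. RefSeq promoters (GRCh38.p14, 250 bases before and 50 after the start) were matched by symbol for 46 of the 53 members and for 9841 of the 12155 genes. EMB, CCND2, THEG, SOCS2 and PHF21B were among those with no entry. Motifs were searched on both strands. The NF-kB motif, here GGG and TTTCC with any 2 bases between them, read by the factor that drives many inflammatory genes, was in 3 of the 46 promoters (6.52%) against 2.08% of the 9841. Several motifs were searched, 3 matches are few, and no test was made. Genes with low parental expression were not compared separately for motifs. The 3 genes were CXCL1, IL32 and WNT10A, all secreted signals. Their 250 bases before the RefSeq start are shown with the motif in capitals. It starts 79, 99 and 116 bases before the start, and in WNT10A it is on the reverse strand. The windows are chr4:73869143-73869392, plus strand, for CXCL1, chr16:3065153-3065402, plus strand, for IL32 and chr2:218880602-218880851, plus strand, for WNT10A. The RefSeq span of IL32 is shorter than that of GENCODE.
CXCL1: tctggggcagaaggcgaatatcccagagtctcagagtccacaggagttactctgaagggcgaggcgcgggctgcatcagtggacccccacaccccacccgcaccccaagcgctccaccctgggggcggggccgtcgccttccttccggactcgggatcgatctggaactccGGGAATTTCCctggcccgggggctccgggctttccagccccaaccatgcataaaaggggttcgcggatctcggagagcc
IL32: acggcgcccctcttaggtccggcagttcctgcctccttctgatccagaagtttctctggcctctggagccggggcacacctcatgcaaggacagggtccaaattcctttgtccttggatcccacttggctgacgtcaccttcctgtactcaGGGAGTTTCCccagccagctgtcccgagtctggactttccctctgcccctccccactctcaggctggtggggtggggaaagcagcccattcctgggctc
WNT10A: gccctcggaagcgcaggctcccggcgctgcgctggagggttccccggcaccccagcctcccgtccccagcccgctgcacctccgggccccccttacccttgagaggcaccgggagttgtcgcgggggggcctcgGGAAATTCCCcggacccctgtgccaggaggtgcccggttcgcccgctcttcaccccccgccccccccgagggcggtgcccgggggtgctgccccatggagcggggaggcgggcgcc

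The other motifs are given beside their share of all promoters, and none of the strings contains another. The TATA box TATAAA was in 3 of the 46 (6.52% against 5.48%), the AP-1 motif TGANTCA in 2 (4.35% against 4.33%), and the E-box CACGTG in 6 (13.0% against 10.2%). The cAMP response element TGACGTCA was in 2 (4.35% against 3.18%), the TEAD motif CATTCC in 7 (15.2% against 10.7%), and CCAAT in 15 (32.6% against 36.6%). The GC box GGGCGG was in 27 (58.7% against 71.0%). A match is a string of letters in this window and does not show that a factor was bound.

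CpG dinucleotides were fewer in the members' promoters. The ratio of observed to expected CpG had a median of 0.68 in members and 0.84 in all 9841 promoters, and it was at least 0.6 in 29 of the 46 (63.0%) against 83.2%. Low parental expression went with this. Among genes with at most 10 CPM in parental cells the share was 27 of 40 members (67.5%) against 68.3% of 2444 genes. The median GC content was 65.7% in both. Members with many and with few CpG are shown by 3 genes, with each CpG in capitals. The fewest were in SCN7A, with 0 in its 300 bases. ATP10A (chr15:25863328-25863577, minus strand) holds 31 CpG in these 250 bases, ALDH1A3 (chr15:100879581-100879830, plus strand) 38 and GJA1 (chr6:121435396-121435645, plus strand) 1.
ATP10A: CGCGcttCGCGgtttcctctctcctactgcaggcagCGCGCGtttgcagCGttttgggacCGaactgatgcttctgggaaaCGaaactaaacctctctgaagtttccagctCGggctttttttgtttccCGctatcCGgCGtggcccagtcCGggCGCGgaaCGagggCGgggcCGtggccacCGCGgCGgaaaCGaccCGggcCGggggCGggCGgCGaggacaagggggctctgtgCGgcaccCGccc
ALDH1A3: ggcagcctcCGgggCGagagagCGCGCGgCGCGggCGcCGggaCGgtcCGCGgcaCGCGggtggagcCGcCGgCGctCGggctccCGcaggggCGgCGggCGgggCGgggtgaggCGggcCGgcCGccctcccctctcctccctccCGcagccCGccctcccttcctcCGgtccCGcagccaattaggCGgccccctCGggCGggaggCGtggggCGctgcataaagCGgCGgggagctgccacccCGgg
GJA1: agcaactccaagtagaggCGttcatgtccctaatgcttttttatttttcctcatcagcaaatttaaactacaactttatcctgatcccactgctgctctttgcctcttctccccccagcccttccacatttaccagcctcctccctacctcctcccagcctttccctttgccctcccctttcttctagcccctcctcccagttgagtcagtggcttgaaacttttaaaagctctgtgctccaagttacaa

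**Figure D2:**
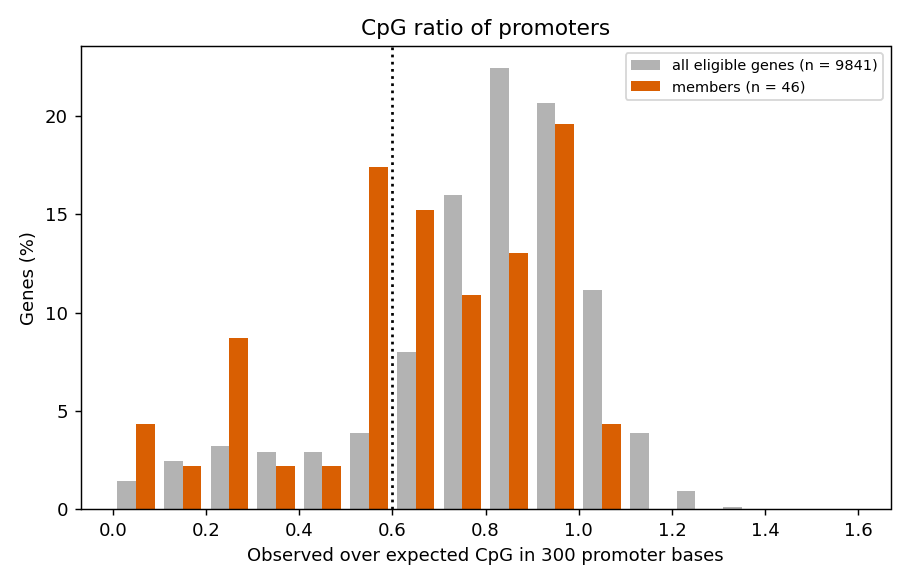
Observed over expected CpG in the 300 promoter bases of 46 members (orange) and of all 9841 eligible genes with a promoter (grey, members included), as percent of each set in steps of 0.1. The dotted line is a ratio of 0.6. Members reach the line in 63.0% and all genes in 83.2%.

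Among proteins that act on the cell cycle and on signalling, the 6 members had a median of 4.87 times parental in clone 3 and a parental level of 6.77 times clone 4. CCND2 (ENSG00000118971, chromosome 12, 4378937 to 4414519, plus strand, GRCh37) had the highest level of all members in parental cells and in clone 3. It was at 119.8 CPM in parental cells, 1006 and 961 in clone 3 and 10.5 and 11.3 in clone 4, which was 8.21 times parental (95% counting interval 7.94 to 8.50) in clone 3, and the parental level was 11.05 times (interval 10.1 to 12.1) that of clone 4. All 4 clone libraries lay far from the parental one, and the 2 libraries of a clone lay close together. RNF144B, a ubiquitin ligase, was at 8.92 CPM in parental cells, 27.2 and 30.8 in clone 3 and 2.85 and 3.96 in clone 4. TRIB2, a pseudokinase that acts on protein degradation and AKT signalling, was at 1.44 CPM in parental cells, 7.87 and 7.41 in clone 3 and 0.237 and 0.353 in clone 4. SOCS2, an inhibitor of growth hormone and cytokine signalling, had a smaller range, with 2.38 CPM in parental cells, 5.36 and 6.59 in clone 3 and 0.543 and 1.06 in clone 4. RNF180, another ubiquitin ligase, and DDIT4L, an inhibitor of mTOR signalling, were both under 0.5 CPM in parental cells. RNF180 reached 2.05 and 3.00 CPM in clone 3 with 0 and 1 counts in clone 4, and DDIT4L reached 1.82 and 2.36 CPM with 1 and 2 counts.

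The 5 secreted proteins had the highest median for clone 3, at 9.94 times parental, and a parental level of 4.36 times clone 4. CXCL1 (ENSG00000163739, chromosome 4, 74735110 to 74737025, plus strand), a chemokine that attracts neutrophils, was at 78.9 CPM in parental cells, 199 and 179 in clone 3 and 15.2 and 12.9 in clone 4. This was 2.40 times parental (95% counting interval 2.30 to 2.51) in clone 3, and the parental level was 5.58 times (interval 5.15 to 6.06) that of clone 4. IL32 (ENSG00000008517, chromosome 16, 3115298 to 3132193, plus strand), an inducible proinflammatory cytokine, was at 16.3 CPM in parental cells, 166 and 157 in clone 3 and 5.97 and 4.91 in clone 4. APOE, the lipoprotein component that binds the LDL receptor, was at 11.3 CPM in parental cells, 33.9 and 35.7 in clone 3 and 1.80 and 3.49 in clone 4. LTBP1, which tethers latent TGF-beta to the matrix, was near the limit of the selection in parental cells, with 9 counts, and reached 387 and 380 counts in clone 3, with 4 and 3 counts left in clone 4. Clone 3 was 42.3 times parental (95% counting interval 22.2 to 92.9), but the parental level was 2.37 times (interval 0.785 to 7.48) that of clone 4, an interval that includes 1. WNT10A, a WNT ligand of skin and tooth development, had 10 counts in parental cells, 139 and 182 in clone 3, and 0 in both clone 4 libraries. Against the floor of 3 counts per library, clone 3 was at least 48.9 times higher than clone 4.

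Among the 9 cell surface proteins clone 3 was a median of 7.85 times parental, and parental cells 6.63 times clone 4. EMB (ENSG00000170571, chromosome 5, 49692026 to 49739082, minus strand), encoding embigin, which binds to monocarboxylate transporters, had the largest ratio of clone 3 to parental cells. It was at 1.31 CPM in parental cells, 55.6 and 64.4 in clone 3 and 0.136 and 0.0785 in clone 4, which was 45.8 times parental (95% counting interval 33.4 to 64.5) in clone 3. GJA1 (ENSG00000152661, chromosome 6, 121756741 to 121770873, plus strand), the gap junction protein connexin 43, was at 9.28 CPM in parental cells, 203 and 209.6 in clone 3 and 1.97 and 2.39 in clone 4, and clone 3 was 22.2 times parental (95% counting interval 19.7 to 25.1). Parental cells stood apart from both clones. PLXDC2, a transmembrane protein of the plexin domain type, was at 0.603 CPM in parental cells, 17.6 and 19.9 in clone 3 and 0.0678 and 0.118 in clone 4. ADAM19, a membrane-bound metalloprotease, had 46 counts in parental cells, 321 and 364 in clone 3, and 0 and 1 in clone 4, a ratio between the clones of 627 times (interval 112 to 24796). This was the largest finite ratio of all members.

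DPP4, a serine peptidase that cleaves incretins and chemokines, was at 1.51 CPM in parental cells, 8.45 and 9.59 in clone 3 and 0.0339 and 0.0785 in clone 4. SUSD5, a membrane protein with a sushi domain, differed less in clone 3, with 2.85 CPM in parental cells, 7.02 and 7.03 in clone 3 and 0.102 and 0.157 in clone 4. TNFRSF14, a receptor that binds LIGHT and BTLA, was at 0.402 CPM in parental cells, 5.40 and 4.54 in clone 3 and 0.102 and 0.0785 in clone 4, and only here and in ADGRE1 among these 9 was the untreated clone 3 library the higher one. ADGRE1, the adhesion receptor used as the macrophage marker F4/80 in mice, was at 1.31 CPM in parental cells, 10.8 and 9.66 in clone 3 and 0.271 and 0.314 in clone 4. EFNB1, the ephrin-B1 ligand of EPH receptors, had the smallest ratio between the clones, with 35.5 CPM in parental cells, 84.9 and 98.5 in clone 3 and 12.5 and 15.2 in clone 4, a ratio of 6.66 times (interval 6.17 to 7.20).

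The 9 enzymes lay farthest below parental cells in clone 4. The parental level was a median of 15.1 times clone 4, and clone 3 was 7.85 times parental. Of these 9, 4 modify sugar chains, and these are among the 7 members with the largest mean log2 ratio between clones (pseudocount 0.1 CPM). GALNT13 (ENSG00000144278, chromosome 2, 154728435 to 155310491, plus strand) starts mucin-type O-glycans. It had 59 counts in parental cells, 659 and 737 in clone 3, and 0 in both clone 4 libraries, so that clone 3 was at least 212 times higher than clone 4. B3GALNT1, which makes the globoside P antigen, was at 4.79 CPM in parental cells, 17.6 and 21.5 in clone 3 and 0 and 0.0785 in clone 4. CHST15, which sulfates chondroitin, was at 0.938 CPM in parental cells, 14.7 and 15.6 in clone 3 and 0 and 0.0785 in clone 4. HS6ST2, which sulfates heparan, was at 4.96 CPM in parental cells, 42.0 and 47.3 in clone 3 and 0.271 and 0.392 in clone 4. Clone 4 lay under the parental level in all 4, with a ratio of parental to clone 4 of 15.1 times (interval 9.26 to 26.3) for HS6ST2, 25.8 times (interval 6.50 to 223) for CHST15 and 132 times (interval 35.8 to 1098) for B3GALNT1.

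ALDH1A3 (ENSG00000184254, chromosome 15, 101417919 to 101456831, plus strand), which makes retinoic acid from retinaldehyde, had 10 counts in parental cells, 276 and 462 in clone 3, and 0 and 2 in clone 4. Clone 3 was 36.7 times parental (95% counting interval 19.8 to 76.8). AGPAT3, an acyltransferase of phospholipid synthesis, was at 5.40 CPM in parental cells, 23.8 and 29.4 in clone 3 and 0.170 and 0.432 in clone 4. ADPRH, which removes ADP-ribose from arginine, was at 0.670 CPM in parental cells, 5.40 and 5.12 in clone 3 and 0.102 and 0.118 in clone 4. TYMP, thymidine phosphorylase, was at 1.54 CPM in parental cells, 7.05 and 4.34 in clone 3 and 0.136 and 0.196 in clone 4, and was the member with the lowest treated to untreated ratio in clone 3. IFI30, a lysosomal thiol reductase of antigen processing, was at 30.3 CPM in parental cells, 69.8 and 73.6 in clone 3 and 5.43 and 13.9 in clone 4, so that its treated clone 4 library was close to the limit of 0.5 times the parental level.

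Channels and transporters, again 9 members, had a median of 3.07 times parental in clone 3 and a parental level of 9.21 times clone 4. ATP10A (ENSG00000206190, chromosome 15, 25922420 to 26110331, minus strand), a phospholipid flippase, had 261 counts in parental cells, 601 and 688 in clone 3, and 0 in both clone 4 libraries. It was the member with the most parental counts among those with 0 counts in clone 4, and the parental level was at least 79.7 times that of clone 4. SLC16A9, a carnitine transporter of the monocarboxylate transporter family, was at 4.16 CPM in parental cells, 18.1 and 22.5 in clone 3 and 0.0678 and 0.118 in clone 4. SLC12A7, the potassium chloride cotransporter KCC4, was at 3.45 CPM in parental cells, 8.78 and 11.1 in clone 3 and 0.136 and 0.196 in clone 4. SLC27A2, a fatty acid transporter and acyl-CoA synthetase, was at 1.01 CPM in parental cells, 4.13 and 5.73 in clone 3 and 0.0678 and 0.157 in clone 4.

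RYR3, a calcium release channel of the endoplasmic reticulum, was at 8.88 CPM in parental cells, 32.9 and 31.8 in clone 3 and 1.56 and 3.65 in clone 4. SLC37A1, a glucose-6-phosphate antiporter, was at 2.85 CPM in parental cells, 7.38 and 8.47 in clone 3 and 0.373 and 0.863 in clone 4. SLC2A6, a glucose transporter family member, had the smallest ratio of clone 3 to parental cells, with 5.43 CPM in parental cells, 12.4 and 12.9 in clone 3 and 1.29 and 1.57 in clone 4. SCN7A, an atypical sodium channel, was low in all libraries, at 0.737 CPM in parental cells, 1.79 and 2.76 in clone 3 and 0.203 and 0.118 in clone 4.

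The 7 transcription factors had a median of 3.78 times parental in clone 3 and a parental level of 5.53 times clone 4. NFIB, a nuclear factor I protein of lung and brain development, was the most abundant, with 6.60 CPM in parental cells, 32.9 and 32.1 in clone 3 and 1.49 and 3.06 in clone 4. WT1 (ENSG00000184937, chromosome 11, 32409321 to 32457110, minus strand), a zinc finger factor of kidney, gonad and mesothelium, had 38 counts in parental cells, 183 and 170 in clone 3, and 0 and 2 in clone 4, a ratio between the clones of 162 times (interval 44.4 to 1339). BCL11B, a factor of T cells and neurons, was at 0.804 CPM in parental cells, 2.67 and 3.04 in clone 3 and 0.203 and 0.118 in clone 4. ZIC5, a neural zinc finger factor, was at 1.01 CPM in parental cells, 2.11 and 2.94 in clone 3 and 0.271 and 0.0785 in clone 4. TLX2, a homeobox factor of enteric neurons, had 10 counts in parental cells, 33 and 43 in clone 3, and 0 and 2 in clone 4. HES7, an oscillating repressor of somite formation, had 12 counts in parental cells, 64 and 44 in clone 3, and 0 in clone 4. PHF21B, a PHD finger protein, lay nearest to the limits, with 12 counts in parental cells, 35 and 43 in clone 3, and 4 and 5 in clone 4. Its parental level was 2.46 times (interval 0.950 to 6.60) that of clone 4, an interval that includes 1.

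The 4 members of the cytoskeleton and cilia were closest to parental cells in clone 3, with a median of 2.84 times parental, and parental cells were at 6.04 times clone 4. NEXN, an actin-binding protein of muscle, was at 5.97 CPM in parental cells, 16.1 and 22.1 in clone 3 and 0.678 and 1.18 in clone 4. TRIM46, which bundles microtubules in axons, was at 1.21 CPM in parental cells, 3.09 and 2.66 in clone 3 and 0.237 and 0.314 in clone 4. ODAD2, which docks the dynein arms of cilia, had 9 counts in parental cells, 63 and 96 in clone 3, and 0 and 3 in clone 4. The remaining 4 members were led by MEIOC, a meiosis factor of germ cells, with 13.4 CPM in parental cells, 55.3 and 67.4 in clone 3 and 3.12 and 3.34 in clone 4. THEG, a testis gene, was at 0.804 CPM in parental cells, 2.28 and 2.53 in clone 3 and 0.0678 and 0.353 in clone 4. BEX5, of a brain-expressed X-linked family, was at 0.737 CPM in parental cells, 1.69 and 2.18 in clone 3 and 0.136 and 0.0785 in clone 4. ANKRD34B, an ankyrin repeat protein, was at 0.536 CPM in parental cells, 2.73 and 2.39 in clone 3 and 0 and 0.0785 in clone 4. Clone 3 was a median of 3.77 times parental in these 4, and parental cells 5.46 times clone 4.

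**Figure D3:**
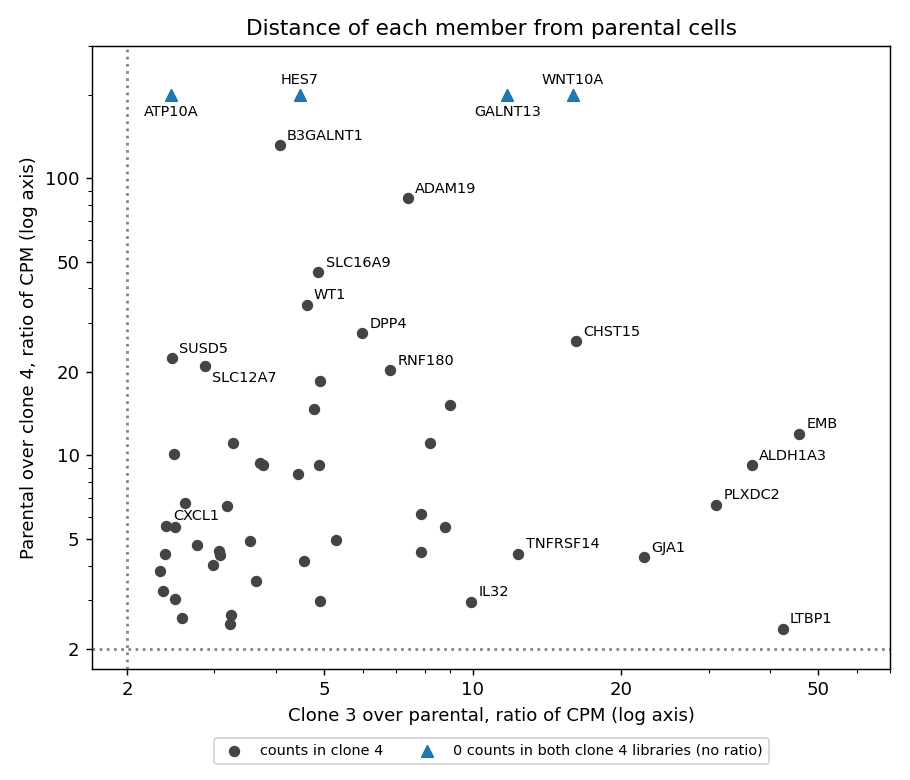
Ratio of clone 3 CPM to parental CPM (horizontal, log axis) against ratio of parental CPM to clone 4 CPM (vertical, log axis), 1 point per member. Both libraries of a clone were pooled. Dotted lines mark the fold of 2 used in the selection, and triangles at the top mark the 4 members with 0 counts in both clone 4 libraries, for which no ratio exists. EMB, LTBP1, ALDH1A3 and PLXDC2 lie farthest to the right, and B3GALNT1 and ADAM19 are the highest of the points with a ratio.

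Members near the limits show how sharp the selection was. In 14 members a library lay within 1.2 times of a fold limit, and 20 other genes missed the rule by no more than 1.2 times. The members closest inside were PHF21B, ZIC5 and NFIB. Closest outside was BIK, a proapoptotic BH3-only gene, with 1.07 CPM in parental cells, 2.11 and 3.31 in clone 3 and 0.102 and 0.0785 in clone 4, where the lowest clone 3 library was 1.97 times parental. ARHGEF16, an exchange factor of small GTPases, was at 10.1 CPM in parental cells, 19.3 and 19.8 in clone 3 and 0.814 and 1.65 in clone 4, and ERICH5, a glutamate-rich protein, was at 4.19 CPM in parental cells, 9.85 and 7.99 in clone 3 and 1.46 and 1.37 in clone 4. A further 4 genes met the rule but had a symbol that was left out (HOXB8, ZNF711, KRT19 and COL14A1), among them KRT19, an epithelial keratin, with 3.75 CPM in parental cells, 57.3 and 69.0 in clone 3 and 0 and 0.275 in clone 4.

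Gene families were counted by symbol, and the members of each are set beside all of its genes that could have met the rule. Over all eligible genes the share was 0.436%. The selection took 4 of 84 glycosyltransferases and sulfotransferases (4.76%), 6 of 253 solute carriers, ion pumps and flippases (2.37%), 3 of 99 ion channels (3.03%), and 3 of 94 secreted growth factors and cytokines (3.19%). It took 2 of 126 genes of the SOX, FOX, GATA, TBX, KLF, ETS, bHLH, ZIC and related factors. WT1 and BCL11B are in no family counted here. In each of 10 families it took 1 gene, out of 62 homeobox and related factors other than HOX, 51 axon guidance genes, 70 integrin and matrix genes, 74 metalloproteases and inhibitors, 94 G protein-coupled receptors and RGS genes, 72 receptor kinases and cytokine receptors, 60 interferon-stimulated and antigen presentation genes, 22 cancer-testis genes, 126 motor and cytoskeletal genes and 95 retinoid, steroid, drug and aldehyde enzymes. None of 52 cadherins and adhesion genes, 17 claudin and tight junction genes, 41 phosphatases and 177 regulators and kinases of small GTPase pathways was a member. Single sides of the rule were counted as higher in clone 3, lower in clone 4, higher in clone 4 and lower in clone 3. Glycosyltransferases and sulfotransferases had 8, 22, 4 and 15 genes, and the transporters 33, 42, 19 and 34. Ion channels had 13, 30, 7 and 22, and secreted factors 29, 25, 15 and 17. All eligible genes had 7.34%, 12.1%, 5.92% and 9.75%, and most of these counts were a larger share. Higher shares were thus not confined to the members' pattern. The counts in each family are small, and no test was made of them.

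Of the lists by cell state, the clear cell and Müllerian list held 1 member among 13 genes, WT1, and the lists of 18 epithelial, 16 mesenchymal, 13 neuronal, 30 SWI/SNF and PRC2 and 15 BCL2 family genes held none. The sides of the rule, met by 7.34% (higher in clone 3), 12.1% (lower in clone 4), 5.92% (higher in clone 4) and 9.75% (lower in clone 3) of all eligible genes, were counted in each list in this order. The epithelial list had 2, 13, 0 and 7 genes, so that its genes were more often lower than higher in both clones. The mesenchymal list had 4, 2, 5 and 4, and the clear cell and Müllerian list 6, 3, 2 and 2. The neuronal list had 2, 1, 0 and 2, the SWI/SNF and PRC2 list 1, 0, 1 and 0, and the BCL2 list 1, 4, 1 and 3.

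The members were spread over the genome. They lay on 19 chromosomes, with 7 of 851 eligible genes on chromosome 2, 5 of 541 on chromosome 5 and 5 of 754 on chromosome 19, and none on chromosomes 7, 8, 18 and 20. No pair had starts within 1 Mb, and 2 pairs lay within 5 Mb. AGPAT3 and SLC37A1 on chromosome 21 were 1368986 bases apart and DPP4 and SCN7A on chromosome 2 were 4411328 apart. The median transcript GC content was 50.4% in members and 49.6% in the 12155 genes, and the median gene span was 47057 against 34725 bases.

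Neighbouring genes were examined next, since the selection did not use them. Within 500 kb of 51 of the members lay 476 other protein-coding genes with at least 1 CPM in some library. Of these, 46 (9.66%) were at least 2 times higher in clone 3 than in clone 4 under both treatments, against 767 (6.34%) of the 12102 protein-coding genes with that level that were neither members nor neighbours. Lower in clone 3 were 4 (0.840%) against 226 (1.87%). These ratios are on the scale of CPM plus 0.1. No neighbour of any type met the full rule, and these shares are a description.

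Several loci held a neighbour with part of the pattern. Beside CXCL1, CXCL8, the chemokine interleukin 8, was at 6.07 CPM in parental cells, 221 and 248 in clone 3 and 17.5 and 12.5 in clone 4, so that both clones were above parental. CXCL2 was at 56.7 CPM in parental cells, 93.1 and 78.1 in clone 3 and 13.5 and 14.6 in clone 4. CXCL3 was at 7.14 CPM in parental cells, 12.5 and 13.7 in clone 3 and 3.87 and 3.57 in clone 4, so that clone 3 was above and clone 4 below parental in both chemokines. CXCL5 was highest in parental cells, with 101 CPM in parental cells, 13.8 and 11.6 in clone 3 and 1.97 and 1.33 in clone 4. CXCL1, CXCL2 and CXCL3 are similar in sequence, and any counts that the authors' estimation divided between them are uncertain. UPK1B, a uroplakin 374125 bases from ADPRH, was at 0.838 CPM in parental cells, 43.3 and 51.9 in clone 3 and 0.509 and 0.589 in clone 4.

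LRRK1, a kinase gene 2701 bases from ALDH1A3, was at 4.46 CPM in parental cells, 3.97 and 5.56 in clone 3 and 0 and 0.0785 in clone 4, so that its clone 3 was close to parental and its clone 4 near 0. ALDH1A3-AS1, antisense to ALDH1A3, was at 1.07 CPM in parental cells, 1.53 and 2.08 in clone 3 and 0.0678 and 0.0392 in clone 4. ZIC2, which lies 10017 bases from ZIC5, was at 0.469 CPM in parental cells, 2.08 and 2.49 in clone 3 and 0 and 0.314 in clone 4. SCN9A, a sodium channel gene 27572 bases from SCN7A, was listed at 0 counts in parental cells and was at 1.46 and 2.05 CPM in clone 3 and 0.170 and 0.314 in clone 4. VAV1, an exchange factor of small GTPases near ADGRE1, was at 9.99 CPM in parental cells, 33.5 and 37.9 in clone 3 and 7.43 and 10.4 in clone 4, and APOC1, next to APOE, was at 4.46 CPM in parental cells, 4.52 and 4.10 in clone 3 and 1.76 and 1.57 in clone 4.

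The counting setting for strand is not given in the sources used here, and 8 members overlap a listed gene on the opposite strand. B3GALNT1 overlaps NMD3, which was at 42.0 CPM in parental cells, 115 and 126 in clone 3 and 80.5 and 80.7 in clone 4, whereas B3GALNT1 had 0 and 2 counts in clone 4. ADAM19 overlaps CYFIP2, at 65.6 CPM in parental cells, 48.9 and 47.3 in clone 3 and 62.3 and 79.9 in clone 4, and ADAM19 had 0 and 1 counts in clone 4. ALDH1A3, IL32, MEIOC, RYR3 and SLC37A1 also overlap such a gene, and IFI30 overlaps a listed gene on its own strand, so their counts are less certain. A pseudogene named after the gene is annotated for 7 members (B3GALNT1, CCND2, CXCL1, EMB, GJA1, ODAD2 and SOCS2), and of those in the table EMBP1 had the most counts, 7 in untreated clone 3.

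GSK126 treatment within the clones was not a comparison of the selection. The selection did use all 4 EIR libraries, and both libraries of a clone had to pass the same limits, so genes with a large response to treatment could be left out. Without treated clone 4 the rule was met by 79 genes instead of 53. The values below are therefore not fully independent of the selection. In DESeq2's two-sided Wald test of the 2 treated against the 2 untreated EIR libraries, 1 of 29847 genes (0.00335%) passed a Benjamini-Hochberg adjusted p of 0.05. It was AMIGO3, named here after its values were seen. None of the 53 members passed (0 members, lowest adjusted p 0.99991). In this test 0 members (0%) and 117 of all genes (0.392%) had an unadjusted p under 0.05. At so small a share of all genes, 0 among 53 members shows no difference from them. In this fit the difference between the clones, at least 4-fold for every member by the rule, counts as spread. With the clone number as replicate block DESeq2 called 4 genes (0.0134%), AMIGO3, GPNMB, IGFBP4 and VGF, and 0 members (lowest adjusted p 0.99992). In this fit 1 member (1.89%) had an unadjusted p under 0.05, as did 282 of all genes (0.945%). The member was IFI30, with a log2 fold change of 0.61 (SE 0.26, unadjusted p 0.0210, DESeq2 adjusted p 0.99992). edgeR's quasi-likelihood test called 0 genes without the block, where 232 of 29847 genes and 0 of the 53 members had an unadjusted p under 0.05. With the block it called 1 gene, AMIGO3, and 0 members (lowest adjusted p 0.942).

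In edgeR with the block, 2 members (3.77%) had an unadjusted p under 0.05, against 839 genes (2.81%). ALDH1A3 had a log2 fold change of 0.87 (unadjusted p 0.0197, edgeR adjusted p 0.942) and NEXN one of 0.50 (unadjusted p 0.0253, edgeR adjusted p 0.942). These p-values do not show that treated and untreated cultures were alike in the other members.

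The ratios of treated to untreated CPM within each clone show the size of the differences. In clone 3 they ranged from 0.615 for TYMP to 1.76 for ALDH1A3, with 37 members above 1 and 16 below. Their median was 1.13, against 1.01 over the eligible genes, of which 52.6% were above 1. The 95% counting interval lay above 1 for 20 members and below 1 for 4. In clone 4, 4 members had 0 counts in both libraries and 10 had 0 only in the untreated one, which gives no finite ratio. The other 39 ranged from 0.289 for ZIC5 to 5.21 for THEG, with 30 above 1 and 9 below. Their median was 1.45, against 1.10 over the eligible genes with a finite ratio. There the interval lay above 1 for 10 and below 1 for 1, CXCL1. Counting the 10 members seen only in treated clone 4 as above 1, 40 of the 53 (75.5%) were above 1 in clone 4. Among the 12106 eligible genes with a count in clone 4 the share was 69.8%. On that count, 28 members were above 1 in both clones and 18 lay on opposite sides of 1. The shares of all genes for these joint counts and for the intervals were not determined. The intervals cover counting error between single libraries and not the spread between cultures.

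Where clone 4 had at least 10 counts in both libraries, 16 members could be followed in both clones. IFI30 had a treated to untreated ratio of 1.05 (interval 0.993 to 1.12) in clone 3 and 2.56 (interval 2.12 to 3.11) in clone 4. RYR3 had one of 0.967 (interval 0.884 to 1.06) and 2.34 (interval 1.63 to 3.41), NFIB of 0.973 (interval 0.890 to 1.06) and 2.05 (interval 1.40 to 3.04), and APOE of 1.05 (interval 0.965 to 1.15) and 1.94 (interval 1.37 to 2.78). In these 4 genes, picked after their values were seen, clone 3 was close to 1 and clone 4 about 2 or above. SLC37A1 was alike, at 1.15 (interval 0.954 to 1.38) and 2.31 (interval 1.08 to 5.29). IFI30, RYR3 and SLC37A1 overlap a listed gene, so their counts are less certain. CCND2 had ratios of 0.955 (interval 0.940 to 0.970) and 1.07 (interval 0.912 to 1.27), GJA1 of 1.03 (interval 0.996 to 1.07) and 1.22 (interval 0.836 to 1.77), and CXCL1 of 0.899 (interval 0.866 to 0.933) and 0.850 (interval 0.735 to 0.982). The difference between the clones in the response was not tested, since each clone had 1 pair of libraries.

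**Figure D4:**
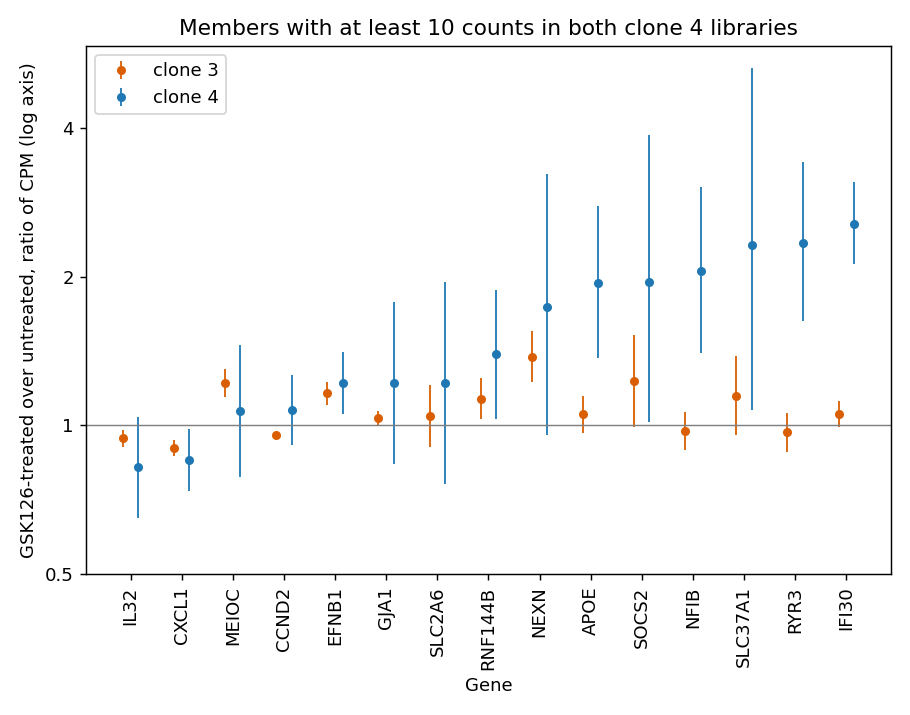
Ratio of GSK126-treated to untreated CPM (log axis) for 15 of the 16 members with at least 10 counts in both clone 4 libraries, in clone 3 (orange) and clone 4 (blue), ordered by the ratio in clone 4. Bars are 95% counting intervals between 2 single libraries and the grey line is a ratio of 1. Clone 3 lies between 0.899 and 1.38, and IFI30 has the highest ratio in clone 4, at 2.56.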

How the data were processed

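RNA-seq libraries were made from total RNA with a stranded kit, per the labels. The authors aligned reads to hg19 with bowtie2 and used RSEM with Ensembl gene models to estimate counts. The deposited values are these expected counts for 30476 genes, not normalized. All were whole numbers and were used as they stood. RSEM divides reads that fit several genes. Symbols, types and coordinates came from GENCODE release 44 on GRCh37, which matched 29203 identifiers (95.8%). Depth per library is given in the report, and 95% intervals (exact, conditional on the summed counts) and floors of 3 counts cover counting error only. Clone ratios used the summed counts of both libraries of a clone over their summed totals. Bounds against the floor used mean CPM. The figure of levels used a pseudocount of 0.1 CPM.

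The members, families, lists and tests were chosen with earlier results of these data known. Genes were named by rule if they were among the 30 members with the largest mean log2 ratio of clone 3 to clone 4, lay within 1 Mb of another member, were on a list, were called under GSK126, or were among the 3 closest inside or outside the limits, with neighbours within 500 kb. The other members and single genes were added with their values seen, to account for every member. Roles were assigned by hand. Some genes are not reported here by name, in the text or in the plots.

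Treated and untreated EIR libraries (2 against 2) were compared with DESeq2 1.42.0 in R 4.3.3 on all genes, the tool and the 5% false discovery rate of the study. The alternative was edgeR 4.0.16. Clone 3 and clone 4 are the same lines untreated and treated, so the clone number pairs the libraries. Deviations from the group means correlated between libraries of a clone (r = 0.864 across 11465 genes, which are not independent replicates). Whether treated and untreated libraries came from separate cultures beyond this is not given. The p-values set the treatment difference against the spread between these libraries, not between replicate cultures. Without the block that spread includes the difference between the clones. The script was tested on simulated data. Promoters were those of RefSeq on GRCh38.p14, kept apart from GRCh37 positions.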

Additional observations from a re-analysis of the deposited data

How the results depend on the processing

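The number of members was 53, and 54 with median-of-ratios size factors or with TMM library sizes, of which 52 were shared with the 53 in each case. It was 29 with a fold of 3, 98 with a fold of 1.5, 34 with a parental minimum of 1 CPM and 76 with no minimum. Leaving out 1 EIR library at a time gave 55 to 79, the highest without treated clone 4. The number of genes called under GSK126 was 1 in DESeq2, 4 with the replicate block and 0 in edgeR, and 1 to 25 when 1 library was left out, the highest without untreated clone 3. There the lone library of an arm is assumed to vary like the other arm. That library is of 1 clone, whereas the other arm holds both clones. Treatment is therefore partly mixed with the difference between the clones. For this reason the number called cannot be read as a number of genes that respond to GSK126. Without untreated clone 4 or treated clone 3 it was 4, and the cause of these differences was not tested. The number of members called was 0 under every alternative, and the block changed no call of a member. The alternatives for the mirrored rule were chosen after seeing the data. Low counts limit the clone 4 values of the 20 members with at most 3 counts in both libraries. With 1 parental library, no spread between parental cultures is known.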
